A study of Homo sapiens with 6 samples.

Results

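The set comprised 10 mRNAs that encode enzymes of glycolysis and lactate formation: GPI, ALDOA, TPI1, GAPDH, PGK1, PGAM1, ENO1, PKM, LDHA and LDHB. The rule that took them used gene symbols and no measured value, but the set was chosen with earlier results of these data known. They were 10 of the 22125 genes listed in the eIF4B iCLIP tables of DoHH-2 and GM01953 cells, and all 10 had counts in both cell lines. Of the listed genes, 13160 were protein-coding with a MANE Select transcript, the reference transcript on which RefSeq and GENCODE agree, and these served as the comparison. iCLIP maps the nucleotide at which reverse transcription stopped next to a UV-cross-linked protein, and the measurement is the number of cDNAs that stopped at a position (cDNA counts). DoHH-2 is a cell line from diffuse large B-cell lymphoma, and GM01953 is a control B-cell line from a donor without the disease. The lines are not isogenic, so disease and cell line cannot be told apart. Neither line carried a labelled genetic change or drug. In both groups 40000000 cells were irradiated with UVC at 150 mJ/cm2, the RNA was trimmed with 0.6 U of RNase I, and complexes were collected with 10 µg of antibody against eIF4B. The replicates, 4 for DoHH-2 and 2 for GM01953, were pooled by the authors before the values were deposited, so each cell line has 1 value per position, with no SD and no test between the lines.

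Glycolysis splits glucose into pyruvate in the cytosol and yields ATP and NADH, and lactate dehydrogenase regenerates NAD+ by turning pyruvate into lactate. Proliferating lymphocytes and lymphomas use the pathway heavily, and its mRNAs are abundant and well translated in most cells. eIF4B is a cofactor of the RNA helicase eIF4A, which unwinds the 5′ UTR so that the small ribosomal subunit can reach the start codon.

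The DoHH-2 table held 2033156 cDNA counts over 1179243 positions, against 167197 over 78474 positions in GM01953, so DoHH-2 was 12.2 times deeper. Intervals below are 95% intervals (Wilson for a share, exact conditional for a ratio of shares) that cover counting error only. The spread between replicates and PCR duplicates that escaped removal are not in them. Of the 8 B-cell markers, 7 had counts in DoHH-2 and 8 in GM01953, whereas CD22 was at 0 in DoHH-2 and had 27 counts in GM01953. All T-cell, myeloid, erythroid and fibroblast markers were at 0 in both lines, and of the 3 epithelial markers only EPCAM had counts, 2 in DoHH-2. mRNA levels were not analysed here, so more mRNA and more eIF4B per mRNA cannot be told apart in any value that follows.

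In DoHH-2 the highest position lay within 50 nt of the start codon in 4 of the 10 mRNAs, and these positions are shown. In the others it lay in the CDS (2), in the 3′ UTR (3) or off the MANE Select transcript (1). Each sequence is the spliced mRNA, 5′ to 3′, from the GENCODE transcript on GRCh38, and the capital marks the cross-linked base, which had 48 counts in PGK1, 15 in PKM, 25 in LDHA and 26 in LDHB in DoHH-2.
PGK1, chrX:78104301, plus strand, 40 nt before the start codon: tcggctccctcgttGaccgaatcaccgacc
PKM, chr15:72219106, minus strand, 9 nt before the start codon: agcgccggaggaccTcagcagccatgtcga
LDHA, chr11:18396836, plus strand, 7 nt before the start codon: ccttttggttccaaGtccaatatggcaact
LDHB, chr12:21654660, minus strand, 11 nt after the A of the start codon: aaaatggcaactctTaaggaaaaactcatt
The ATG is within the window of PKM, LDHA and LDHB. The PGK1 base was the highest position of this gene in GM01953 as well, with 23 counts, and PGK1 was the only 1 of the 10 mRNAs whose highest position was the same in both lines. The LDHA base had 3 counts in GM01953, and the PKM and LDHB bases had 0.

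A second group of sequences is shown for the word GTCATC, which is in capitals and starts at the cross-linked base. These are the 6 GTCATC positions with most counts on the 10 mRNAs in DoHH-2, out of 18 places with the word, of which 8 had no count. Most places without a count lay within 40 nt before an exon junction, where few counts fell on any spliced mRNA, as given below.
ENO1, chr1:8861079, 3′ UTR: catgtgagcctcgtGTCATCtccggggtgg
ENO1, chr1:8866492, CDS: tcccggcgttcaatGTCATCaatggcggtt
ENO1, chr1:8866363, CDS: acaacctgaagaatGTCATCaaggagaaat
GAPDH, chr12:6537128, CDS: ggggagccaaaaggGTCATCatctctgccc
TPI1, chr12:6870479, 3′ UTR: atgcttctgatggtGTCATCtgctccttcc
LDHB, chr12:21637184, CDS: aaagtgcctatgaaGTCATCaagctaaaag
In DoHH-2 the ENO1 position in the 3′ UTR had 198 counts, whereas the 10 nt to each side of it averaged 3.15 counts. The next ENO1 positions in this list had 131 and 59 counts, with neighbours at 3 and 1.2 counts on average. GAPDH had 27 counts, TPI1 21 and LDHB 21 at their positions, with neighbours averaging 2.75, 0.95 and 1.55. In GM01953 the same 6 positions had, in the order shown, 14, 1, 8, 0, 0 and 3 counts.

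The 10 mRNAs together held 15343 cDNA counts in DoHH-2, or 0.755% of the table (95% interval 0.743 to 0.767%), and 1340 in GM01953, or 0.801% (0.760 to 0.845%). The ratio of the shares, DoHH-2 over GM01953, was 0.942 (0.890 to 0.996). Its interval included 1 without the highest position of each member, at 0.993 (0.937 to 1.053), and with MANE Select exons, at 0.949 (0.8955 to 1.007). ENO1 held 28.6% of the counts of the set in DoHH-2 and 27.2% in GM01953. The iCount false discovery rate (FDR) compares the count around a position with shuffled counts of the same gene, and positions with an FDR below 0.05 are called sites here. Sites held 89.3% of the counts of the set in DoHH-2 (88.8 to 89.7%) and 79.3% in GM01953 (77.0 to 81.3%), compared with 48.3% and 66.1% over all coding genes. When counts at sites alone were used, the order of the cell lines reversed, and the ratio of the shares was 1.35 (1.27 to 1.44). This setting also changed the denominator to all counts at sites. Those were 43.7% of the whole table in DoHH-2 and 55.6% in GM01953, so the filter took a larger part of the DoHH-2 denominator. A gene with more than 20 counts at sites was taken as bound. The authors also required enrichment over total RNA, which was not applied here, and genes of like depth were not compared. All 10 mRNAs were bound in DoHH-2, where 31.6% of the coding genes were, and 9 of 10 in GM01953, where 6.19% were. PGAM1, with 12 counts at sites in GM01953, was the member that was not.

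Levels were compared between genes as counts per 1000000 counts of the table (CPM) and per kb of mRNA. The levels of the 10 mRNAs ran from 25.5 to 1144 CPM per kb in DoHH-2 and from 46.5 to 1155 in GM01953. ENO1, the enolase that makes phosphoenolpyruvate, was highest, at 1144 (1110 to 1179) in DoHH-2 and 1155 (1040 to 1284) in GM01953. In DoHH-2 it was followed by LDHB at 457.5 and GAPDH at 452, whose intervals overlapped, then ALDOA at 393 and LDHA at 358, which also overlapped, and PKM at 324. PGK1 at 237 and TPI1 at 219 overlapped, and PGAM1 at 28.4 and GPI at 25.5 were lowest and overlapped. Only 7.002% of the short words of PGAM1 sequence occur once in the genome, against 80.5% for GPI. Where the words were unique, PGAM1 had 645 counts per kb in DoHH-2, PGK1 567 and GPI 61.6. These densities cover unlike parts of the mRNAs. The unique words of PGAM1 lay only in its 5′ UTR and 3′ UTR and held 80 counts. Those of PGK1 and GPI lay along the whole mRNA. Whether repeated sequence lowered the PGAM1 level was not tested. Leaving out exon ends changed the order of the genes between ENO1 and PGAM1, as given with the exon junctions below. In GM01953 GAPDH at 740 and ALDOA at 565 came next to ENO1 with overlapping intervals. PKM at 337, LDHB at 266, PGK1 at 256, LDHA at 251 and TPI1 at 146 followed, each overlapping its neighbour, and GPI at 58 and PGAM1 at 46.5 were again lowest. Among all coding genes ranked by this level, ENO1 was in place 49 of 12661 in DoHH-2 and 51 of 9747 in GM01953, whereas GPI was in place 1782 and 825.

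**Figure D1:**
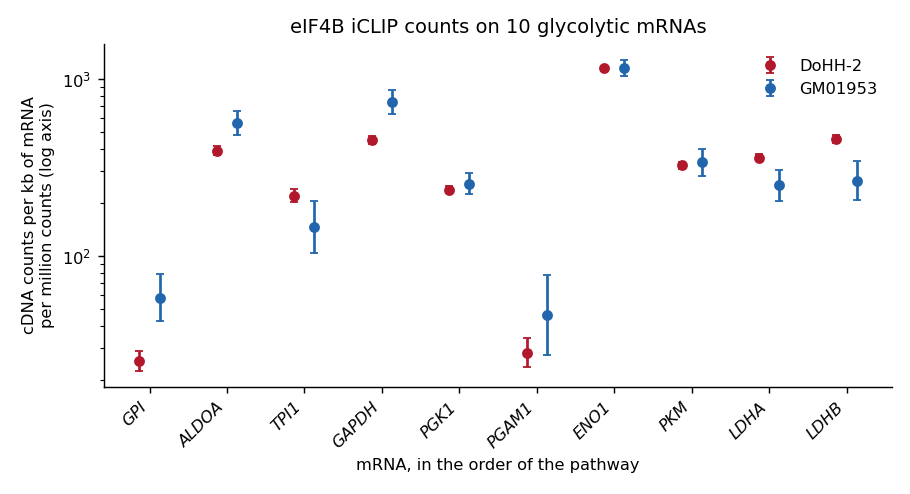
cDNA counts per kb of MANE Select mRNA and per 1000000 counts of the table (log axis) for the 10 mRNAs in pathway order. Points are the pooled value of DoHH-2 (red) and GM01953 (blue) and bars are 95% Wilson intervals for counting error. ENO1 is highest in both lines, at 1144 and 1155, and GPI and PGAM1 lie below 100. Levels are over the whole mRNA, with repeated sequence and exon ends included.

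The length used for this level matters for the mRNAs with long annotated 3′ UTRs. On PGK1, 99% of the exonic counts in DoHH-2 lay within the first 2194 of 4812 nt, and in GM01953 within 1856 nt. On LDHA they lay within 1592 and 1597 of 2241 nt, and the last position with a count was at 1634 nt in DoHH-2. Over the stretch that held these counts, PGK1 had 514 CPM per kb in DoHH-2 and 664 in GM01953, and LDHA had 501 and 352. Whether a shorter 3′ UTR is made in these cells was not tested. On GAPDH, ALDOA, ENO1 and PKM the counts in DoHH-2 reached at least 97.35% of the transcript.

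The share of each mRNA was next compared between the lines. GPI, ALDOA and GAPDH had a lower share in DoHH-2. GPI, which converts glucose 6-phosphate to fructose 6-phosphate, had 253 counts in DoHH-2 and 53 in GM01953, or 124 and 317 CPM, a ratio of 0.393 (0.291 to 0.538). ALDOA, the aldolase that cleaves fructose bisphosphate, had 1667 and 203 counts, or 820 and 1214 CPM, a ratio of 0.675 (0.583 to 0.785). GAPDH, which makes the NADH of the pathway, had 1236 and 164 counts, or 608 and 981 CPM, a ratio of 0.620 (0.526 to 0.734).

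LDHA and LDHB, the lactate dehydrogenase subunits, had a higher share in DoHH-2. LDHA had 1678 counts in DoHH-2 and 96 in GM01953, or 825 and 574 CPM, a ratio of 1.44 (1.17 to 1.79). LDHB had 1255 and 63 counts, or 617 and 377 CPM, a ratio of 1.64 (1.27 to 2.15). The other 5 had intervals that included 1. TPI1, which interconverts the triose phosphates, had 641 and 38 counts and a ratio of 1.39 (0.9997 to 1.98). PGAM1, the phosphoglycerate mutase, had 110 and 15 counts and a ratio of 0.603 (0.350 to 1.11). PGK1, which makes the first ATP of the pathway, had 2404 and 210 counts and a ratio of 0.941 (0.817 to 1.09). ENO1, with 4381 and 364 counts, was at 0.9898 (0.889 to 1.10), and PKM, the pyruvate kinase, with 1718 and 134 counts, at 1.054 (0.884 to 1.27).

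At a fixed ratio of 2, none of the 10 mRNAs was higher in DoHH-2, where 32.4% of the 9046 coding genes with at least 20 counts were, and 1, GPI, was higher in GM01953, where 14.2% were. By any amount, 4 of 10 were higher in DoHH-2, compared with 61.1% of the coding genes. The median ratio was 0.966 over the 10 mRNAs and 1.29 over the 9046 genes. The 20 counts were summed over both lines, so many of these genes could have very few counts in GM01953. Their ratios then carry a large counting error. The 10 mRNAs had 15 to 364 counts in GM01953, and genes of like depth were not compared. With positions in place of counts, LDHA reversed to 0.719, LDHB fell to 1.06 (0.731 to 1.59), so that its interval included 1, and ENO1 fell to 0.606 (0.5002 to 0.741) and PGK1 to 0.6645 (0.516 to 0.8675), below 1. With sites only, where the denominator also shrank more in DoHH-2 as given above, ALDOA and GAPDH reversed to 1.09 and 1.01. TPI1 at 2.33, PGK1 at 1.19, ENO1 at 1.33 and PKM at 1.63 then had intervals above 1. Of the GPI counts in DoHH-2, 116 were at positions listed under a second gene as well, and without such positions the GPI ratio was 0.282.

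**Figure D2:**
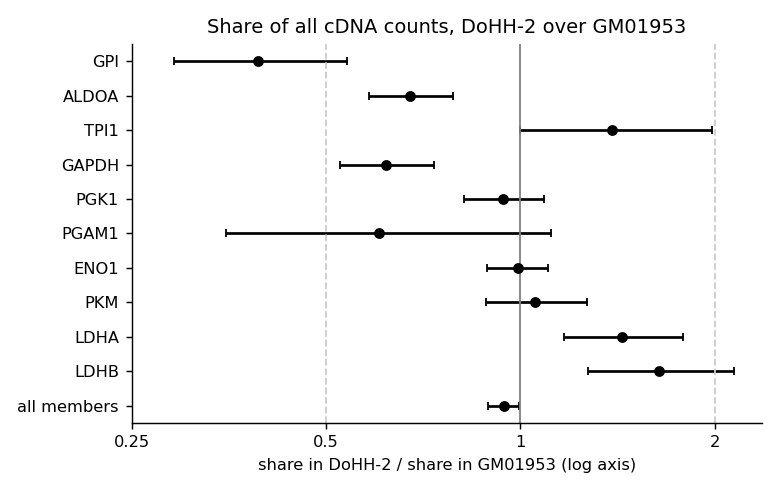
Ratio of the share of all cDNA counts, DoHH-2 over GM01953 (log axis), for each mRNA and for the 10 together. Points are the ratio and bars the exact 95% interval for counting error. The grey line is a ratio of 1 and the dashed lines are ratios of 0.5 and 2. GPI, ALDOA and GAPDH lie below 1, LDHA and LDHB above 1, and the set as a whole is at 0.942.

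Both tables held few counts at the ends of exons, which affects where counts could fall on every spliced mRNA. Over the 88 exon junctions of the 10 mRNAs, the last 10 nt before the junction had 6 counts in DoHH-2 and the first 10 nt after it had 1313. In GM01953 these numbers were 3 and 114. Over coding genes with enough counts they were 528 and 31985 in DoHH-2 and 54 and 2265 in GM01953. The density on the 10 mRNAs in DoHH-2 was 2.00 times their mean from 50 to 46 nt before the junction, 0.644 times from 40 to 36 nt, 0.0904 times from 25 to 21 nt and 2.20 times in the first 5 nt after it. A cDNA that starts in these last bases runs across the junction into the next exon. Whether reads across junctions were lost in mapping was not tested. The leader densities are therefore also given without the last 40 nt of exons that precede a junction, which left 84.5% of the length of the 10 mRNAs (called open bases below). With open bases only, ALDOA was at 493.8 CPM per kb in DoHH-2 (467.5 to 521.5) and LDHA at 404.8 (385.5 to 425). These intervals no longer overlapped, whereas LDHA overlapped PKM at 378.2 (359.4 to 398.1). GAPDH passed LDHB and TPI1 passed PGK1, with overlapping intervals in both pairs. ENO1 stayed highest, and GPI and PGAM1 lowest. In GM01953 LDHA passed LDHB and PGK1, and the order was otherwise unchanged.

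**Figure D3:**
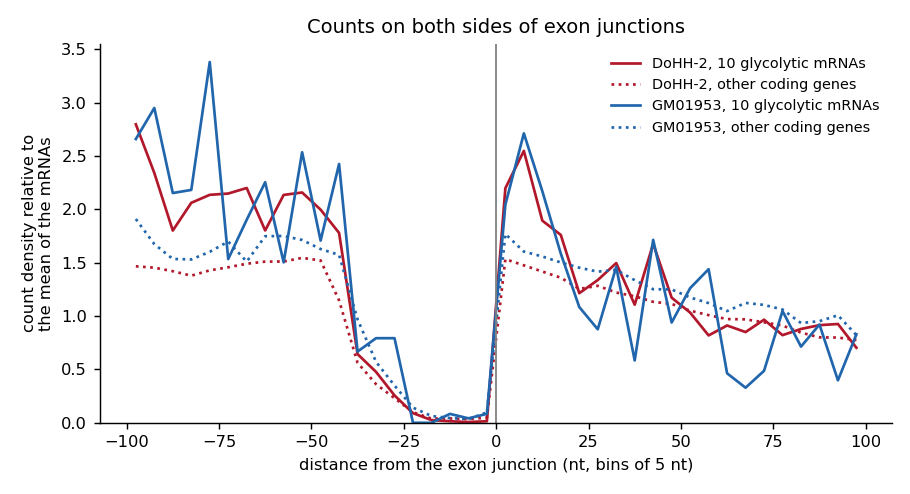
Density of cDNA counts in bins of 5 nt around exon junctions, relative to the mean density of the same mRNAs, for the 10 glycolytic mRNAs (solid) and other coding genes (dotted) in DoHH-2 (red) and GM01953 (blue). All 4 lines fall towards 0 over the last 40 nt of the upstream exon and rise at the first base of the downstream exon.

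To describe where eIF4B lay on the mRNAs, counts were placed in 5 regions of the MANE Select transcript, namely the 5′ UTR, 50 nt to each side of the start codon, the CDS, 50 nt to each side of the stop codon and the 3′ UTR. The 5′ UTR and start codon region together (the leader) held 29.4% of the exonic counts of the set in DoHH-2 (28.7 to 30.2%) and 37.6% in GM01953 (35.0 to 40.4%). Over all coding genes the leader held 16.2% and 23.5%. The leader as defined here includes the first 50 nt of the coding sequence, so its counts are not all in the 5′ UTR. The 5′ UTR outside the start codon region held 13.98% in DoHH-2 and 18.7% in GM01953, against 6.64% and 11.65% over all coding genes. The start codon region held 15.5% and 18.9%, against 9.51% and 11.9%. Per kb, the leader of the 10 mRNAs had 4.64 times the density of their CDS in DoHH-2 and 6.25 times in GM01953. With open bases only these ratios were 4.12 and 5.66, and 2.58 and 3.74 over all coding genes. A leader with more than 2 times the CDS density was found in 8 of 10 mRNAs in DoHH-2, where 51.6% of coding genes had one, and in 8 of the 9 with at least 20 exonic counts in GM01953, where 57.9% had one. With open bases only the counts were again 8 of 10 and 8 of 9, against 47.8% and 55.9%, but the members differed. In DoHH-2 GPI fell below the threshold, from 2.53 to 1.48 times, and GAPDH passed it, from 1.87 to 3.38 times. Of the 31-nt words of the CDS, 0% in PGAM1, 29.1% in TPI1, 35.5% in GAPDH and 49.3% in LDHA are unique in the genome. In the other members 67.9 to 97.5% are, and 5′ UTR words are nearly all unique. With unique words only, the leader share was 30.7% in DoHH-2 and 38.6% in GM01953. Whether repeated CDS sequence raised the density ratios of single members was not tested.

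Elsewhere on the mRNAs the comparison depended on the histone genes, whose counts collect at the stop codon. The stop codon region held 5.04% of the exonic counts of the 10 mRNAs in DoHH-2 (4.69 to 5.41%) and 7.14% in GM01953 (5.83 to 8.71%). Over all coding genes it held 17.4% and 15.5%, but without the histone genes 5.39% and 5.67%. It had more than 2 times the CDS density in 4 of 10 mRNAs in DoHH-2 and 4 of 9 in GM01953, compared with 20.9% and 24.8% of coding genes. With open bases only it did so in 3 of 10 and 4 of 9, against 15.2% and 22.1%, with GPI lost in DoHH-2 at 1.71 times, and PGAM1 passed on 3 counts. Over the 10 mRNAs together the region had 1.17 times the CDS density in DoHH-2, and 0.862 times with open bases only. The 3′ UTR held 19.9% of the counts of the set in DoHH-2 (19.25 to 20.56%) and 12% in GM01953 (10.3 to 13.9%), against 26.1% and 19.7% over all coding genes and 33.0% and 23.1% without histone genes. The CDS held 45.6% and 43.2%, and 44.2% and 45.1% over coding genes without histone genes. The leader of these genes held 17.4% and 26.1%, below the leader of the 10 mRNAs in both lines.

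**Figure D4:**
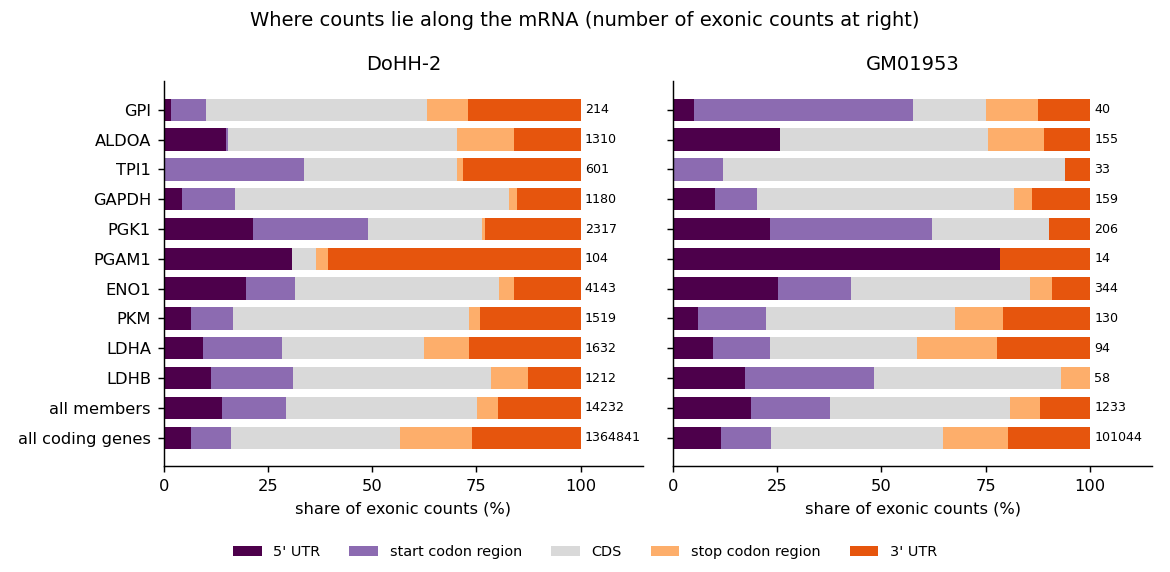
Share of exonic cDNA counts (%) in 5 regions of the MANE Select transcript for each of the 10 mRNAs, the 10 together and all coding genes, in DoHH-2 (left) and GM01953 (right), with the number of exonic counts at the right of each bar. The leader (both purple shades) is widest in PGK1 in DoHH-2, at 48.9%. In GM01953 PGAM1, with 14 exonic counts, has the widest leader.

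PGK1 collected counts in its leader more than any other member with over 200 exonic counts. In DoHH-2 the 143 nt of the leader held 1134 of 2317 exonic counts, or 48.9% (46.9 to 51.0%), at 14.4 times the density of the CDS. In GM01953 it held 128 of 206 counts, or 62.1% (55.4 to 68.5%), at 17.8 times. All of these counts lay in exon 1, which had 7177 counts per kb in DoHH-2, whereas exon 2 had 1725 and exon 10, the lowest, 141. With open bases only, exon 1 was at 9483, the 11 open bases of exon 2 at 6909 and exon 3 at 1353. In GM01953 exon 1 was then at 1085, exon 2 at 1000 and exon 3 at 34.5. The 21 nt around the highest position alone held 16.4% of the PGK1 counts in DoHH-2 and 32.4% in GM01953. The PGK1 stop codon region had 18 counts in DoHH-2 and 0 of 206 in GM01953, which allows a share of up to 1.46%.

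ENO1 had the most counts overall and a leader with 1307 of 4143 exonic counts in DoHH-2, or 31.5% (30.2 to 33.0%), and 147 of 344 in GM01953, or 42.7% (37.6 to 48.0%). Its 5′ UTR outside the start codon region had 12380 counts per kb in DoHH-2, against 1688 in the CDS. Density was highest in exon 1 at 8299 counts per kb and exon 2 at 4543, and ranged from 814 to 3010 in exons 3 to 12 with no steady fall. With open bases only, exon 1 was at 12240 and exon 2 at 7630, and exons 3 to 12 ranged from 913 to 5036. Exon 12 had 811 counts in DoHH-2, of which 198 lay at the GTCATC position shown above. In GM01953 the highest ENO1 position was chr1:8865364 in exon 8, with 17 counts there and 8 in DoHH-2.

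LDHA and LDHB are paralogs, and their CDS exons 3 to 7 have the same lengths. The LDHA leader held 462 of 1632 exonic counts in DoHH-2, or 28.3% (26.2 to 30.5%), and 22 of 94 in GM01953, or 23.4% (15.99 to 32.9%). The LDHB leader held 375 of 1212, or 30.9% (28.4 to 33.6%), and 28 of 58, or 48.3% (35.9 to 60.8%). The stop codon region had 2.80 times the CDS density on LDHA and 1.66 times on LDHB in DoHH-2. The LDHB 3′ UTR had 154 counts in DoHH-2, or 12.7%, and 0 of 58 in GM01953, which allows a share of up to 5.17%. Exons 3 and 5 of LDHA had 17 and 15 counts in DoHH-2, or 144 and 86.2 per kb, whereas exon 4 between them had 782 per kb. LDHB exons 3 and 5 of the same lengths had 746 and 638 per kb. Of the 31-nt words within the exon, 17.2% in LDHA exon 3 and 52.45% in LDHA exon 5 occur nowhere else in the genome, against 51.75% in exon 4, and the part of such copies in the low exons was not tested.

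TPI1 counts were distributed differently in the 2 lines, but GM01953 had only 33 exonic counts. In DoHH-2 its start codon region held 202 of 601 exonic counts, or 33.6% (29.95 to 37.5%), the CDS 221 and the 3′ UTR 170, or 28.3% (24.8 to 32.0%). In GM01953 the CDS held 27 of 33 counts, or 81.8% (65.6 to 91.4%), the start codon region 4 and the 3′ UTR 2, or 6.06% (1.68 to 19.6%). The highest position in GM01953, chr12:6868869 in exon 2, had 6 counts there and 17 in DoHH-2. The 10 nt to each side and the position itself held 16 counts in GM01953, or 42.1% of the gene. Much of the CDS share in GM01953 thus came from 1 cluster, and the intervals treat its counts as independent. In DoHH-2 exon 4 had 6 counts and exon 5 had 1, both were at 0 in GM01953, and 8.82% and 0% of their 31-nt words are unique.

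GAPDH counts lay mainly in the CDS, with 776 of 1180 in DoHH-2, or 65.8% (63.0 to 68.4%), and 98 of 159 in GM01953, or 61.6% (53.9 to 68.8%). The highest position in DoHH-2 was chr12:6536687 in exon 4, with 50 counts there and 6 in GM01953. In GM01953 it was chr12:6537884 in exon 8, with 16 counts there and 2 in DoHH-2. The leader had 1.87 times the CDS density in DoHH-2 and 2.35 times in GM01953, and 3.38 and 3.245 times with open bases only, where 46 of its 126 nt remain. Exon 7 had only 6 counts in DoHH-2 against 0 in GM01953. It holds no unique 31-nt word.

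**Figure D5:**
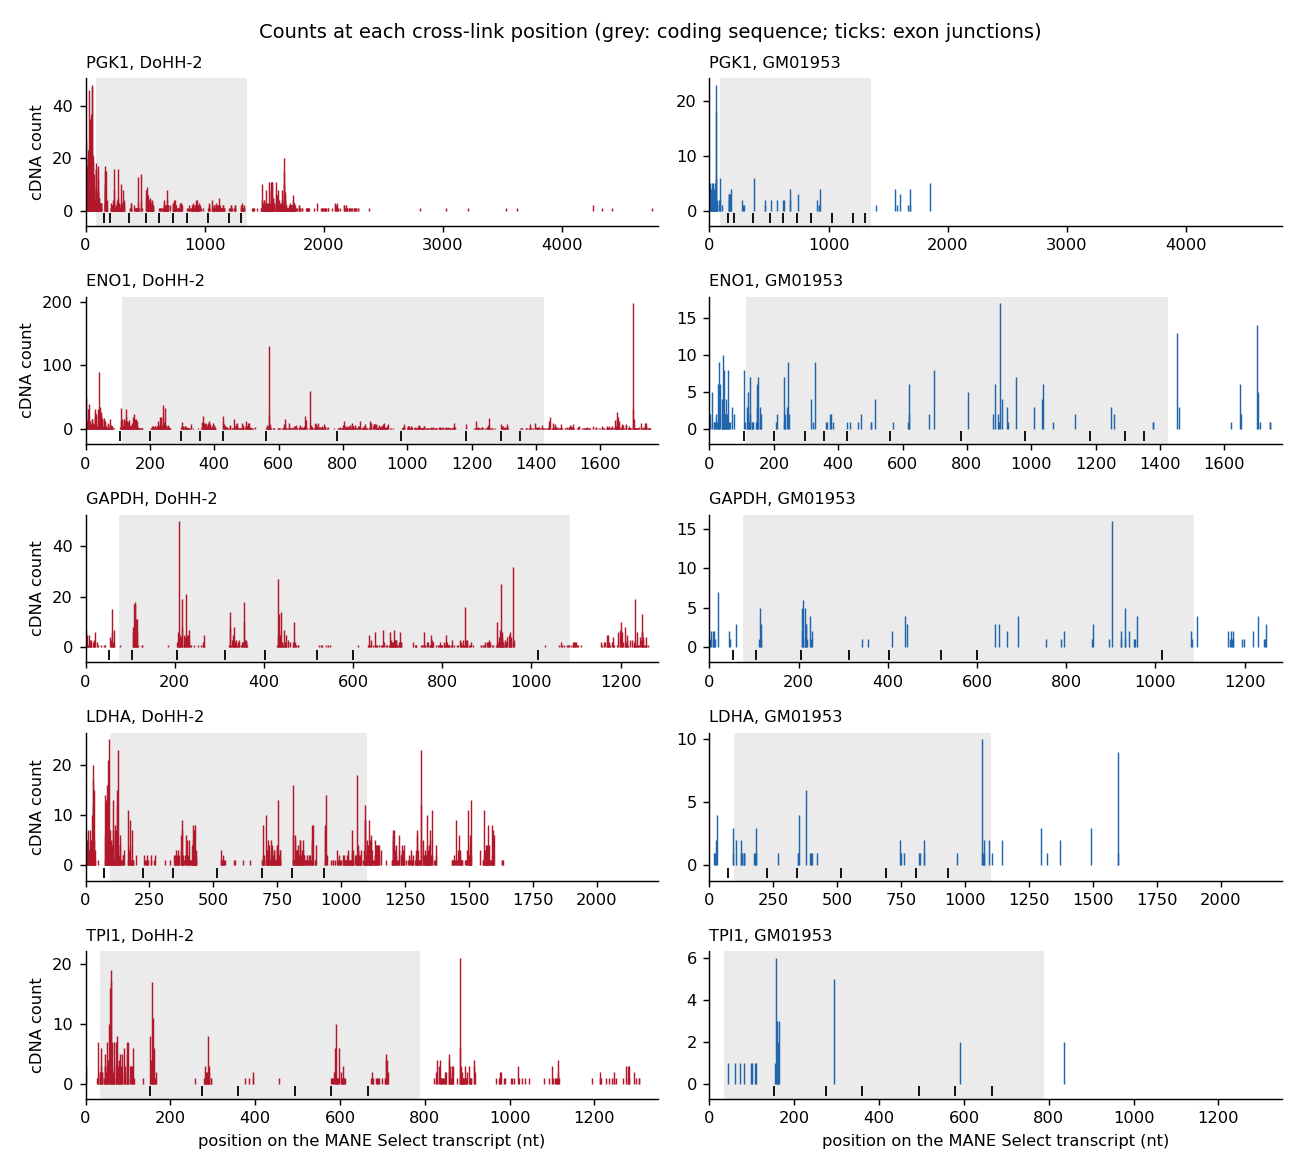
cDNA counts at each cross-link position along the MANE Select transcript (nt) of PGK1, ENO1, GAPDH, LDHA and TPI1 in DoHH-2 (red, left) and GM01953 (blue, right), with the CDS in grey and exon junctions as ticks. Each panel has its own count axis. PGK1 counts crowd into the leader, ENO1 has isolated positions at 131 and 198 counts, and gaps precede the junctions.

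PKM counts were spread along the mRNA, with 858 of 1519 in the CDS in DoHH-2, or 56.5% (54.0 to 59.0%), 254 in the leader and 365 in the 3′ UTR. No PKM position had more than 15 counts in DoHH-2. PKM is spliced with exon 9 into PKM1 or with exon 10 into PKM2, the form of proliferating cells, and both exons have the same length. In DoHH-2 exon 9 (chr15:72203022-72203188) had 11 counts at 5 positions and exon 10 (chr15:72202454-72202620) had 80 counts at 49 positions, so that exon 10 held 87.9% of their counts (79.6 to 93.1%). The highest position held 7 counts in each exon, and the interval treats counts at a position as independent. In GM01953 exon 9 had 0 and exon 10 had 6 counts, and the interval for exon 10 was 61.0 to 100%.

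The ALDOA leader held 201 of 1310 exonic counts in DoHH-2, or 15.3% (13.5 to 17.4%), and 40 of 155 in GM01953, or 25.8% (19.6 to 33.2%), nearly all of them in the 5′ UTR of exon 1. Exon 2 of the MANE Select transcript (chr16:30066885-30067038), which holds the start codon, had 2 counts in DoHH-2 and 0 in GM01953 over 154 nt, although all of its 31-nt words are unique. Exon 1 had 199 and 40 counts and exon 3 had 131 and 21. ALDOA also had counts at alternative first exons upstream of the MANE Select start, 154 and 165 in DoHH-2 and 24 and 19 in GM01953. The first of these holds chr16:30064186, which shared the highest ALDOA count in DoHH-2, 21, with a position in the stop codon region. The stop codon region had 2.85 times the CDS density in DoHH-2 and 3.15 times in GM01953.

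GPI and PGAM1 had few counts. The GPI leader held 22 of 214 exonic counts in DoHH-2, or 10.3% (6.89 to 15.1%), and 23 of 40 in GM01953, or 57.5% (42.2 to 71.5%). The GPI CDS held 113 counts in DoHH-2, or 52.8% (46.1 to 59.4%), and 7 in GM01953, or 17.5% (8.745 to 31.95%). On PGAM1, 32 of 104 exonic counts in DoHH-2 lay in the 5′ UTR and 63 in the 3′ UTR, whereas the start codon region had 0, which allows a share of up to 2.88%, and the CDS had 6 over 662 nt. In GM01953 its 5′ UTR had 11 of 14 counts. None of the 31-nt words of the PGAM1 start codon region, CDS or stop codon region is unique in the genome, and 98.5% of those in the 5′ UTR are.

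The genome holds copies of parts of these mRNAs. Over the whole transcript, 7.002% of the 31-nt words of PGAM1, 39.3% of TPI1 and 41.2% of GAPDH were unique, against 65.3% of LDHA, 79.2% of PKM and 92.2% of ALDOA. In DoHH-2 GAPDH had 1702 counts per kb where the following word was unique and 398 per kb where it was not, TPI1 had 1004 and 99.9, and PGAM1 645 and 14.6. For ENO1 these densities were 2596 and 1079, for PGK1 567 and 158, for LDHB 1057 and 272 and for GPI 61.6 and 13.75. Within the start codon region the order was the opposite on ENO1, at 4686 and 6214, and on LDHA, at 2898 and 4250. Position along the mRNA and uniqueness of sequence were not separated by any test. GENCODE lists 104 pseudogenes named after the 10 genes, and they held 473 counts in DoHH-2 and 61 in GM01953, or 3.08 and 4.55 per 100 counts of the parent genes. The share was highest for PGAM1, with 62 counts on its pseudogenes against 110 on the gene in DoHH-2, of which 51 were on PGAM1P5. LDHA had 155, GAPDH 133 and ENO1 59 counts on pseudogenes in DoHH-2.

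Positions were largely shared between the lines. Of the 563 positions on the 10 mRNAs in GM01953, 442 (78.5%, 74.9 to 81.7%) also had counts in DoHH-2, which is 8.49% of the 5208 positions in DoHH-2. Over all coding genes 32.9% of GM01953 positions and 2.06% of DoHH-2 positions were shared. These shares depend on how densely a gene is covered, and the 10 mRNAs were covered more densely than most. The share of GM01953 positions found in DoHH-2 was 88.8% for ENO1 and 88.1% for PGK1, and 27.3% for GPI. For 5 of the 10 mRNAs the highest position in DoHH-2 had counts in GM01953, and for 7 the highest position in GM01953 had counts in DoHH-2. Highest positions were not compared between the lines over other coding genes, so these numbers have no background.

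The cross-linked base was seldom an A. On the 10 mRNAs A took 9.80% of the counts in DoHH-2 (9.32 to 10.3%) and 5.92% in GM01953 (4.74 to 7.38%), although 24.4% of their bases are A. T, which is U in the RNA, took 34.1% and 32.0%, and G 29.8% and 32.4%. Counts also collected at certain words. Words of 6 bases starting at the cross-linked base were ranked on the other coding genes in DoHH-2 by their counts over those an even spread along each mRNA would give. TACGGC led this ranking at 14.9 times an even spread. It was followed by TTCATC at 13.3 times, by TAAACG at 12.65 times, by TTCAAC at 12.3 times and by GTCATC at 11.6 times. These 5 words were then read on the strand of the 10 mRNAs, where TTCATC and GTCATC share all letters but their first. These words stood at 37 places on the 10 mRNAs, and their starting bases held 601 counts in DoHH-2, or 4.22% of the exonic counts, against 0.252% with an even spread. In GM01953 they held 38 counts, or 3.08% against 0.253%. On the other coding genes the shares were 1.26% against 0.0984% in DoHH-2 and 1.31% against 0.0989% in GM01953.

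GTCATC had most of these counts on the 10 mRNAs, with 481 at 18 places in DoHH-2, 24.2 times an even spread, and 26 in GM01953, 14.4 times. Most of them came from ENO1, where the 3 positions shown above held 388 of the 481 counts in DoHH-2. At 8 of the 18 places, 3 of them in GAPDH, no count was found in DoHH-2, and in GM01953 14 places had none. Without ENO1, GTCATC had 87 counts at 13 places in DoHH-2, 10.5 times an even spread, and 3 counts in GM01953, 3.57 times. On other coding genes it had 11.6 times an even spread in DoHH-2 and 12.6 times in GM01953. TTCAAC had 70 counts at 6 places in DoHH-2 and 12 in GM01953. TTCATC had 47 counts at 11 places in DoHH-2 and 0 in GM01953, and TACGGC and TAAACG stood at 1 place each with 3 and 0 counts. The highest position opened such a word in 2 of the 10 mRNAs in DoHH-2, ENO1 and TPI1, and in 0 in GM01953. How often it did so on other coding genes was not counted. Whether eIF4B, the UV cross-link or the cloning of cDNA ends favours these words was not tested.

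Other genes of glucose metabolism, a list of 57, were set beside the 10 mRNAs. Of these, 9 had no counts in either line, among them the hexokinase HK3 and the pyruvate kinase PKLR. In DoHH-2 30 were bound (52.6%) and in GM01953 7 (12.3%), against 31.6% and 6.19% of coding genes. There were 41 with at least 20 counts over both lines. Of these, 10 had a share at least 2 times higher in DoHH-2 (24.4%) and 2 in GM01953 (4.88%), against 32.4% and 14.2% of coding genes. The remaining steps of glycolysis had the phosphofructokinases PFKP, with 462 counts in DoHH-2 against 41 in GM01953, and PFKL, with 380 against 39. The hexokinase HK2 had 305 against 27. Their ratios were 0.927, 0.801 and 0.929, and each interval included 1. ALDOC, the aldolase isozyme best known from brain, had 280 and 8 counts, a ratio of 2.88 (1.44 to 6.73), opposite to ALDOA.

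Of the transporters, SLC16A1 for lactate had 490 and 29 counts, SLC2A1 for glucose 405 and 17, and BSG, the chaperone of the lactate transporters, 197 and 17. SLC2A1 had a ratio of 1.959 (1.21 to 3.40), whereas SLC16A3, a second lactate transporter, was at 0.445 (0.307 to 0.662). Among regulators of flux, PFKFB4 had 352 and 14 counts, a ratio of 2.07 (1.22 to 3.82), PFKFB3 had 185 and 23, a ratio of 0.662 (0.428 to 1.07), and PGM1 had 166 and 3. In the pentose phosphate pathway TKT had 518 and 39 counts, TALDO1 213 and 17 and RPIA 128 and 14, with intervals that included 1. Of the genes for pyruvate entry into mitochondria, PDHA1 had 131 and 6 counts, PDHB 130 and 2 and PDK1 119 and 12. In the serine branch SHMT2 had 527 and 8 counts, a ratio of 5.42 (2.73 to 12.6), PHGDH had 247 and 9, a ratio of 2.26 (1.17 to 4.99), and PSPH had 172 and 7. MYC and HIF1A, transcription factors of the pathway, had 1179 and 80 and 192 and 22 counts, and their ratios of 1.21 and 0.718 had intervals that included 1. In CPM per kb, only SHMT2 at 111 and MYC at 138 passed 100 in DoHH-2 among the genes named here, so that ENO1, LDHB, GAPDH, ALDOA, LDHA, PKM, PGK1 and TPI1 were all above them.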

How the data were processed

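eIF4B iCLIP was analysed in DoHH-2 (4 replicates) and GM01953 (2 replicates). The cDNA counts per position were made by the authors. Their steps were Je for demultiplexing, BBMap for the removal of PCR duplicates, HISAT2 for mapping and iCount for cross-link positions, with the replicates of a line pooled. HISAT2 and the build GRCh38 are also named in the submitters' processing notes, and versions are not given in the sources used here. As deposited, the values are integer counts without normalization. The FDR of each position, which iCount takes from shuffled counts of the same gene, was also deposited by the authors. File positions count from 0 and were shifted by 1. Positions were taken by gene symbol, counted once, and placed on MANE Select transcripts of GENCODE release 44. Shares used all counts of a table as denominator. Words of 31 nt were searched on both strands of the reference genome. Steps were run in Python 3.11.15 with scipy 1.17.1 and tested on simulated data. For each member the position with most counts is named, and of each group of the wider gene list the 3 genes with most counts in DoHH-2. ALDOC, SLC16A3, PKLR, HK3, the low exons and the words were named after their values were seen. The 10 members and the gene lists were chosen with earlier results of these data known. Intervals cover counting error only. A count of 0 was taken to allow up to 3 counts of the total. Windows, regions and thresholds were varied as alternatives. No normalization to total RNA was made, since total RNA was not analysed here.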

Additional observations from a re-analysis of the deposited data

How the results depend on the processing

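No paired analysis was possible because the replicates were pooled in the tables, and for the same reason no replicate could be left out. The share of the 10 mRNAs in DoHH-2 (0.755%) moved to 1.54% with sites only, 0.791% with positions of a single gene, 0.442% with positions in place of counts, 0.700% with MANE Select exons, 1.09% over coding genes without histones, 0.734% without the highest position of each member and 0.540% without ENO1. In GM01953 (0.801%) it moved to 1.14%, 0.717%, 0.738%, 1.18%, 0.739% and 0.585% under the same settings except positions of a single gene, which changed it by less than its interval. The ratio of the shares (0.942) reversed to 1.35 with sites only and moved to 0.616 with positions in place of counts. Under the other 5 settings it lay between 0.9236 and 0.993, and its interval included 1 without the highest positions and with MANE Select exons. At a ratio of 1.5 in place of 2, 1 member was higher in DoHH-2 and 3 in GM01953, and with sites only 3 were higher in DoHH-2. The number of bound members stayed within 1.5 times of the value given at every threshold tried.

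The leader share in DoHH-2 (29.4%) moved to 25.7% with codon regions of 25 nt, 31.6% with sites only, 27.6% on the longest coding transcript, 26.4% as the mean over members, 30.7% with unique 31-nt words and 28.6% without ENO1. In GM01953 (37.6%) it moved to 33.1% and 42.3% under the first 2 of these. The 3′ UTR share in DoHH-2 (19.9%) moved to 21.1% with codon regions of 25 nt, 19.1% with sites only, 18.8% without the highest positions, 24.98% as the mean over members and 21.5% without ENO1. The pseudogene counts per 100 parent counts fell to 1.45 in DoHH-2 and 2.45 in GM01953 with sites only. The PKM exon share in GM01953 has no value with sites only, since neither exon had a site. Of 60 alternatives for the ratios of single members, 42 stayed within the interval, 15 moved beyond it, and 3 reversed: LDHA to 0.719 with positions in place of counts, and ALDOA to 1.09 and GAPDH to 1.01 with sites only. The cause of these changes was not tested. Settings with unique words, without ENO1, without the last 40 nt of exons, with sites only for PKM exons and pseudogenes, and those for the words and the stop codon regions were chosen after seeing the data. GM01953 has 14 to 344 exonic counts per member, which limits its regional shares.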
